A study of Homo sapiens with 12 samples.

Results

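Keratins are the intermediate filament proteins of epithelial cells, and 10 keratin genes of 26334 genes in the files are described here by symbol: KRT7, KRT8, KRT18, KRT19, KRT15, KRT17, KRT23, KRT80, KRT81 and KRT86. The values came from A549, an established line from a human lung adenocarcinoma, sequenced as polyadenylated RNA in 12 libraries, 3 for each of 4 conditions. Lentivirus brought in a non-targeting shRNA (shControl) or one directed at RNF113A (shRNF113A), and the cells were selected with puromycin and then left untreated or exposed to Cisplatin, a DNA crosslinking drug, at 25 µg/ml for 20 h according to the labels. For most other experiments with these cells the paper gives the dose in µM and a longer exposure, so the dose behind these libraries is uncertain. Controls and depleted cells share the infection and the selection, and the 4 conditions all come from 1 cell line. The comparisons address how keratin transcripts differ upon Cisplatin, upon depletion of RNF113A (a protein with a RING domain that also associates with the spliceosome), and upon both.

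A keratin filament is built from heterodimers of a type I and a type II keratin, so the partners are made together in the same cell. KRT8 (type II) and KRT18 (type I) are the first keratins of simple epithelia, KRT7 (type II) and KRT19 (type I) accompany them in ducts and glands, KRT15 and KRT17 (type I) are typical of basal and of stressed or regenerating epithelium, KRT23 is a type I and KRT80 a type II epithelial keratin, and KRT81 and KRT86 are type II hair keratins that some carcinomas also express. In lung adenocarcinoma KRT7, KRT8, KRT18 and KRT19 are commonly used as markers of the tumour's epithelial origin.

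Each library held between 26220526 and 45721152 read pairs assigned to genes. In these bulk samples, fewer cells that express a gene and less RNA per cell cannot be told apart. The targeted gene, RNF113A, was at 19.9 ± 0.397 CPM (reads of the gene per 1e+06 assigned reads, scaled by TMM, mean ± SD, n = 3) in shControl untreated libraries and at 16 ± 0.772 in shRNF113A untreated libraries, a log2 fold change of -0.31 (SE 0.09, edgeR adjusted p = 0.0247). Among Cisplatin-treated cells the difference in RNF113A was -0.14 (SE 0.09, edgeR adjusted p = 0.233), and "depleted" below is the label of the shRNA. Epithelial markers (EPCAM, CDH1, ESRP1, CLDN4 and the members KRT8 and KRT18) summed to between 3400 and 14121 CPM per library, most of it from KRT8 and KRT18. Of the others, CDH1 averaged 162 CPM, EPCAM 10.3, ESRP1 1.13 and CLDN4 0.494 CPM in shControl untreated libraries. Immune markers summed to at most 0.192 CPM and endothelial markers to at most 0.788. The fibroblast markers COL1A1, COL3A1, DCN and LUM summed to between 6.08 and 35.9 CPM. Of the lung markers, the surfactant genes SFTPA1 and SFTPB had at most 1 count in any library, SFTPC at most 5, and all 5 lung markers together summed to at most 5.07 CPM. One library stood apart for several keratins, shControl untreated replicate 2. For KRT4 and the members that it moves most, expression values are given with and without it. The equally numbered shControl Cisplatin replicate 2 was also the lowest of its group for KRT8, KRT18, KRT7, KRT80 and KRT4. Values given without shControl untreated replicate 2 still hold that low treated library, so their Cisplatin falls are not corrected on both sides. Other genes are given with all 12 libraries only.

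The 10 genes fell into levels far apart in the shControl untreated libraries. Per kilobase of exon, KRT18 stood first (2546 ± 742 CPM per kb, SD, n = 3), followed by KRT8 (1874 ± 574), KRT7 (1066 ± 260) and KRT81 (1052 ± 128). KRT80 (46.9 ± 18.5) and KRT86 (32.7 ± 3.44) formed a middle group. KRT19 (0.648 ± 0.156), KRT15 (0.202 ± 0.0156), KRT23 (0.0578 ± 0.0566) and KRT17 (0.0415 ± 0.0492) were the lowest group. The libraries of KRT18 and KRT8, of KRT7 and KRT81, of KRT80 and KRT86, and of KRT23 and KRT17 overlapped, and so did KRT8 and KRT7. Compared within each library, KRT18 stood above KRT8 and KRT8 above KRT7 in all 3. The KRT18 to KRT8 ratio was 1.32 to 1.4 and the KRT7 to KRT8 ratio 0.526 to 0.633. Without shControl untreated replicate 2 the means of the other 2 libraries were 2969 (KRT18), 2204 (KRT8), 1216 (KRT7) and 57.65 CPM per kb (KRT80), and KRT8 no longer overlapped KRT18 or KRT7. The order also depends on the exon lengths. With those of a later annotation (Gencode v44 lifted to GRCh37) it was KRT18 (1654), KRT81 (1052), KRT8 (800) and KRT7 (468) in shControl untreated libraries, and KRT81 (602) stood above KRT18 (579) and KRT8 (375) in shControl Cisplatin. Without length, the 10 genes together took 1.4% of assigned reads in this condition, 0.729% in shControl Cisplatin, 1.69% in shRNF113A untreated and 0.823% in shRNF113A Cisplatin (means of 3). KRT8 and KRT18 alone took 1.01%, 0.447%, 1.29% and 0.559%. Without replicate 2 the shControl untreated shares were 1.58% and 1.16%.

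**Figure D1:**
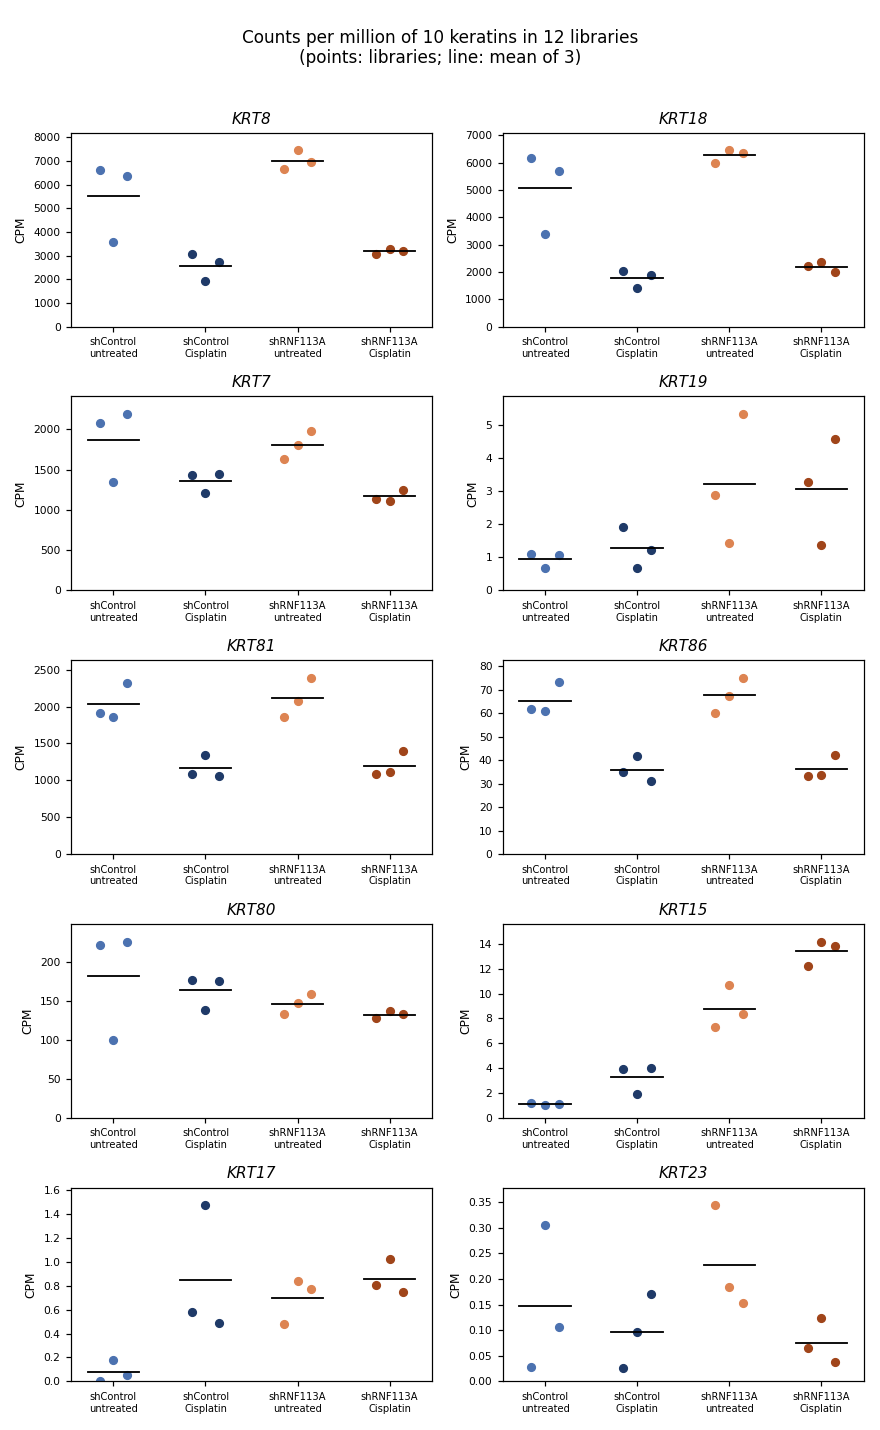
Level of each of the 10 keratins in CPM (vertical axes, linear from 0, a separate scale for each gene) in the 4 conditions, with 1 point per library and a line at the mean of 3. KRT8 and KRT18 sit lower in the Cisplatin-treated libraries, KRT15 sits higher in every shRNF113A library than in any shControl library, and shControl untreated replicate 2 lies below the other replicates for KRT8, KRT18, KRT7 and KRT80.

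KRT8 and KRT18, the obligate pair of simple epithelia, lie next to each other on chromosome 12 on opposite strands (hg19, Gencode v19, KRT8 at chr12:53290977-53343738 on the minus strand and KRT18 at chr12:53342655-53346685 on the plus strand). They share exon bases on opposite strands, and 22.7% to 25.2% as many reads as counted for KRT18 fell on KRT8's opposite strand, which the stranded counts used here leave out. The only member found in the RefSeq promoter table (GRCh38.p14) was KRT8, at chr12:52926420-52926719 on the minus strand. This window runs from 250 bases before to 50 after the start listed there, and it is shown because both partners moved together. Its coordinates are of another build than those of the genes above. Whether the measured KRT8 RNA begins at this listed start was not tested. The words found or missing in the window are therefore not assigned to the promoter behind the KRT8 counts. 4 words were searched on both strands. The TATA word TATAAA occurs in 11.5% of 35116 promoters, the AP-1 word TGANTCA in 7.71%, the Sp1 word GGGCGG in 45% and the word of KLF factors, CACCC, in 59.9%. The capitals mark CACCC on the opposite strand, the only one of these words in this window.
KRT8 promoter: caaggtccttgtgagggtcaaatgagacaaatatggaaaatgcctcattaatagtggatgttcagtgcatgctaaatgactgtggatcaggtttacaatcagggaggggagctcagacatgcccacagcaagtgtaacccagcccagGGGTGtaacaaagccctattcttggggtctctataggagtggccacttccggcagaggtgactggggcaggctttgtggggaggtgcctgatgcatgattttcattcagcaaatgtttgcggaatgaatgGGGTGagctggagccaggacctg

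KRT8 read 6602, 3565 and 6349 CPM in the shControl untreated libraries and 3063, 1936 and 2752 in shControl Cisplatin. It read 6647, 7450 and 6964 CPM in shRNF113A untreated and 3073, 3273 and 3208 in shRNF113A Cisplatin. All Cisplatin-treated libraries were below every untreated one of the same shRNA, and in shControl untreated replicate 2 KRT8 was nearer to the treated level. Such separation, here and below, was common among all 15352 tested genes. With Cisplatin 56.1% of them did not overlap, in either direction, in control cells and 74.2% in depleted cells. Upon depletion 43.3% did not overlap in untreated and 57.7% in Cisplatin-treated cells. Over both shRNAs KRT8 fell by 1.12 on the log2 scale (SE 0.14, edgeR adjusted p = 1.1e-05), 2.17-fold lower. In control cells alone the change was -1.09 (SE 0.21, edgeR adjusted p = 0.000776), and it came under 2-fold without shControl untreated replicate 1 (-0.94) or 3 (-0.98) or shControl Cisplatin replicate 2 (-0.92), with edgeR adjusted p at or under 0.004. Without replicate 2 of shControl untreated it was -1.33 in control cells and -1.23 over both shRNAs (edgeR adjusted p = 2.19e-07).

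KRT18 read 6164, 3393 and 5675 CPM in shControl untreated libraries and 2049, 1402 and 1877 in shControl Cisplatin. Depleted cells read 5993, 6441 and 6339 untreated and 2226, 2353 and 2016 with Cisplatin. Treated and untreated libraries did not overlap with either shRNA. The change was -1.51 in log2 (SE 0.13, edgeR adjusted p = 3.21e-07), the largest fall among the members. Without shControl untreated replicate 2 it was -1.61 (SE 0.09, edgeR adjusted p = 1.06e-08).

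A gene was called when its adjusted p was under 0.05 and its fold change at least 2. By this rule 2 of 9 tested members were called lower upon Cisplatin over both shRNAs, KRT8 and KRT18, where 11.2% of all 15352 tested genes were, and 2 were called higher, KRT15 and KRT17, where 10.3% were. KRT7, KRT81 and KRT86 fell by less than 2-fold, so that 5 members passed the adjusted p in the downward direction, where 32.1% of all genes did. Within shControl cells 2 members were called lower, KRT8 and KRT18 (10.6% of all genes), and 2 higher, KRT15 and KRT17 (9.16%). Within shRNF113A cells KRT8 and KRT18 were called lower (11.5% of all genes) and no member higher (11.6%), and DESeq2 called none higher either. KRT15, the 1 member with an unadjusted p under 0.05 in that direction, also passed the adjusted p (log2 0.61, edgeR adjusted p = 0.0352) but not the fold limit.

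The KRT18 to KRT8 ratio, per kilobase, was 1.37 ± 0.044 in shControl untreated libraries (1.32 to 1.4) and 1.02 ± 0.042 in shControl Cisplatin (0.986 to 1.07). In depleted cells it was 1.31 ± 0.036 untreated (1.27 to 1.34) and 1.02 ± 0.079 with Cisplatin (0.926 to 1.07), each SD over 3 libraries. Every treated library was below every untreated one, so the type I partner was lower relative to the type II partner with Cisplatin. Replicate 2 of shControl untreated, the low library for both genes, had the highest ratio of its group. The absolute ratio depends on the exon lengths chosen, and 20.2% of 73-base windows of the KRT8 transcript and 7.83% of those of KRT18 also occur in other genes, their pseudogenes among them. The ratios are descriptions with no test.

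**Figure D2:**
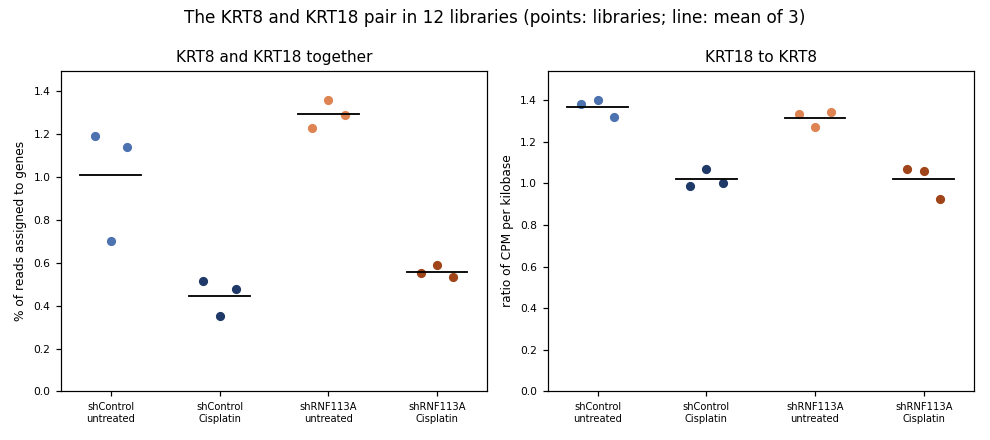
Share of assigned reads (%) that KRT8 and KRT18 took together on the left panel, and the KRT18 to KRT8 ratio of CPM per kilobase of exon on the right, by condition, with 1 point per library and a line at the mean of 3. The share is 0.7 to 1.36% in the untreated and 0.352 to 0.591% in the treated libraries. The ratio is 1.27 to 1.4 in the 6 untreated libraries and 0.926 to 1.07 in the 6 Cisplatin-treated libraries.

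KRT7, the simple epithelial type II keratin at chr12:52626304-52645970 (plus strand), read 2074, 1347 and 2190 CPM in shControl untreated and 1432, 1215 and 1448 in shControl Cisplatin libraries. In depleted cells it read 1634, 1801 and 1980 untreated and 1137, 1113 and 1252 with Cisplatin. Replicate 2 of shControl untreated lay inside the treated range, whereas the depleted groups did not overlap. KRT7 fell by 0.54 in log2 over both shRNAs (SE 0.11, edgeR adjusted p = 0.000585), which is 1.46-fold, and by 0.64 without shControl untreated replicate 2 (SE 0.07, edgeR adjusted p = 2.63e-06). Its difference from the fall of KRT8 was not tested, and the ratio of KRT7 to KRT8 per kilobase was 0.579 ± 0.053 in shControl untreated, 0.905 ± 0.14 in shControl Cisplatin, 0.431 ± 0.039 in shRNF113A untreated and 0.614 ± 0.042 in shRNF113A Cisplatin (SD, n = 3).

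KRT81, a hair keratin at chr12:52679697-52685318 (minus strand), read 1918, 1859 and 2312 CPM in shControl untreated and 1081, 1349 and 1055 in shControl Cisplatin libraries. In depleted cells KRT81 read 1864, 2080 and 2389 untreated and 1085, 1106 and 1396 with Cisplatin. Treated and untreated libraries did not overlap with either shRNA, and replicate 2 of shControl untreated was not apart here. KRT81 fell by 0.81 (SE 0.1, edgeR adjusted p = 5.13e-06).

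KRT86, the hair keratin at chr12:52643084-52702947 (plus strand), followed at a much lower level, with 61.8, 60.8 and 73.2 CPM in shControl untreated and 34.9, 41.8 and 31.3 in shControl Cisplatin. Depleted cells gave 60.1, 67.5 and 75.1 CPM untreated and 33.1, 33.9 and 42.2 with Cisplatin. The KRT86 change was -0.88 in log2 (SE 0.09, edgeR adjusted p = 1.76e-06), and in depleted cells -0.89, which passed 2-fold without shRNF113A Cisplatin replicate 3 (-1.01). Of the 73-base windows of the KRT81 transcript, 33.4% also occur in KRT86, and 28.5% of KRT86 windows occur in KRT81, so reads of that kind cannot be assigned to 1 of them, and the KRT86 level is uncertain. The KRT86 to KRT81 ratio per kilobase stayed between 0.0287 and 0.0316 in all 12 libraries.

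KRT80, an epithelial type II keratin at chr12:52562780-52585784 (minus strand), read 222, 99.7 and 227 CPM in shControl untreated and 178, 139 and 176 in shControl Cisplatin. In depleted cells KRT80 read 133, 148 and 159 untreated and 128, 137 and 133 with Cisplatin. The log2 change upon Cisplatin was -0.15 (SE 0.16, edgeR adjusted p = 0.423), and that upon depletion was -0.31 (SE 0.16, edgeR adjusted p = 0.117). Replicate 2 of shControl untreated was the low value behind the SD of 71.9 CPM in its group, against 4.49 to 21.6 in the other groups. Without that library KRT80 fell by 0.28 upon Cisplatin (SE 0.08, edgeR adjusted p = 0.00758) and by 0.45 upon depletion (SE 0.08, edgeR adjusted p = 0.000679), both under 2-fold, so that this 1 library decided whether KRT80 passed the adjusted p.

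Upon depletion the members of low level, KRT15 and KRT19, were higher. KRT15, a type I keratin of basal epithelium at chr17:39669995-39678781 (minus strand), read 1.16, 0.994 and 1.09 CPM in shControl untreated libraries and 7.28, 10.7 and 8.33 in shRNF113A untreated. With Cisplatin it read 3.95, 1.9 and 4 in shControl and 12.2, 14.2 and 13.8 in shRNF113A libraries. All depleted libraries were above all control libraries, treated ones included. The share of all genes that separate over both treatments was not counted. Over both treatments KRT15 was 5.57-fold higher upon depletion (log2 2.48, SE 0.22, edgeR adjusted p = 2.71e-06). The 3 control libraries without drug rested on 40.7 counts each on average.

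KRT19, at chr17:39679869-39684560 (minus strand), is the neighbour of KRT15 on chromosome 17 and read 1.11, 0.688 and 1.06 CPM in shControl untreated, against 2.89, 1.42 and 5.32 in shRNF113A untreated. With Cisplatin KRT19 read 1.92, 0.674 and 1.23 in shControl and 3.26, 1.36 and 4.57 in shRNF113A. The untreated groups did not overlap and the treated groups did, and replicate 2 was the lowest of its group in all 4 conditions. Over both treatments KRT19 was 2.83-fold higher upon depletion (log2 1.5, SE 0.37, edgeR adjusted p = 0.0048). In untreated cells alone the change was 1.75 (SE 0.54, edgeR adjusted p = 0.0305), and the adjusted p passed 0.05 without shControl untreated replicate 1 (0.0592), 2 (0.067) or 3 (0.0638) or shRNF113A untreated replicate 1 (0.0577) or 3 (0.144). In Cisplatin-treated cells it was 1.26 (SE 0.52, edgeR adjusted p = 0.0709), and with the replicate numbers as a block 1.21 (edgeR adjusted p = 0.00616).

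KRT17, at chr17:39775689-39781094 (minus strand), was counted 0, 7 and 2 times in shControl untreated libraries, and 22, 61 and 23 times in shControl Cisplatin. In depleted cells it was counted 18, 32 and 25 times untreated and 25, 33 and 20 times with Cisplatin. The shControl untreated libraries were the low ones, and the other 3 conditions overlapped. KRT17 passed the filter on low counts only through those 3 conditions, so its calls against shControl untreated are not independent of that filter. With counts this low the fitted changes depend on the method's prior count, and they were 3.36 for Cisplatin in control cells (SE 0.67, edgeR adjusted p = 0.00109) and 3.08 for depletion in untreated cells (SE 0.69, edgeR adjusted p = 0.00622). Both use the shControl untreated libraries, so they are not independent. KRT23, at chr17:39078948-39093886 (minus strand), was counted 1 to 13 times per library. It did not pass the filter on low counts with all 12 libraries, so no comparison from that fit is given for it.

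Upon depletion over both treatments, 2 of 9 tested members were called higher, KRT15 and KRT19, where 5.47% of all genes were, and none lower, where 5.52% were and where no member had an unadjusted p under 0.05 in that direction with edgeR, and DESeq2 called none lower either. Of the members of high level, KRT8 at 0.33 (SE 0.14, edgeR adjusted p = 0.072), KRT18 at 0.3 (SE 0.13, edgeR adjusted p = 0.0698), KRT81 at 0.05 (SE 0.1, edgeR adjusted p = 0.697) and KRT7 at -0.14 (SE 0.11, edgeR adjusted p = 0.31) did not pass. Without shControl untreated replicate 2, KRT7 was at -0.23 (edgeR adjusted p = 0.0125) and KRT8 at 0.22 (edgeR adjusted p = 0.0858). Without replicate 1 of that group KRT8 was at 0.39 (edgeR adjusted p = 0.0452) and KRT18 at 0.38 (edgeR adjusted p = 0.0329), so whether these 3 passed the adjusted p rested on single libraries. KRT17 was also called higher without shControl Cisplatin replicate 2 (1.63, SE 0.48, edgeR adjusted p = 0.0145). In untreated cells 3 members were called higher upon depletion, KRT15, KRT19 and KRT17, where 3.7% of all genes were. In Cisplatin-treated cells 1 was, KRT15, where 6.9% of all genes were, with a log2 change of 2.03 (SE 0.24, edgeR adjusted p = 7.57e-05).

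**Figure D3:**
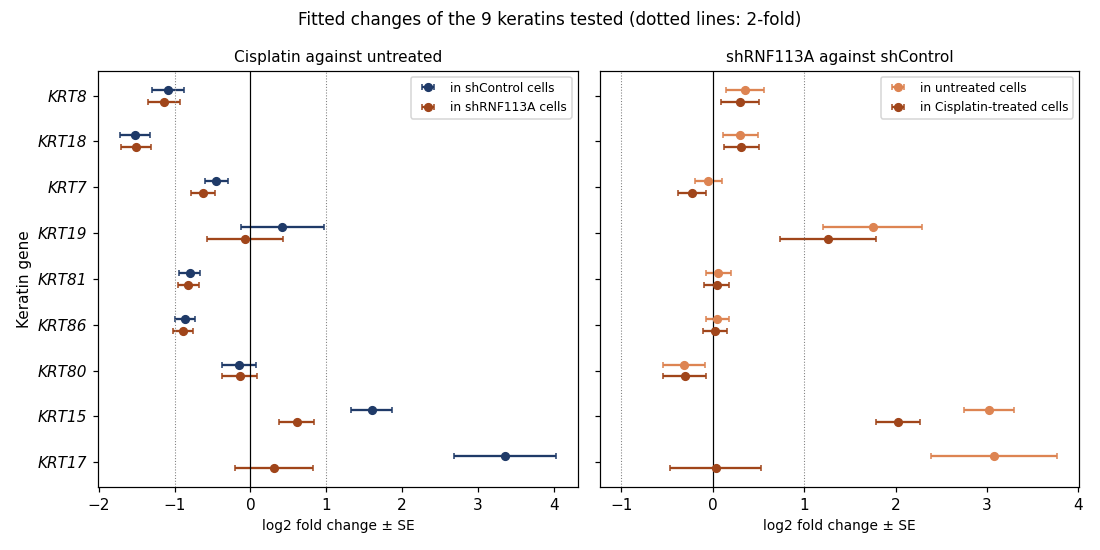
Log2 fold changes of the 9 tested keratins (points) with their standard errors (bars), for Cisplatin within each shRNA on one panel and for depletion within each treatment on the other. KRT8 is at -1.09 and -1.14 and KRT18 at -1.52 and -1.51 with Cisplatin, KRT15 is at 3.02 and 2.03 upon depletion without and with Cisplatin, and KRT17 is at 3.36 and 0.31 on the first panel.

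The Cisplatin effects of the members were compared between shRNAs with the interaction term. KRT8 changed by -1.09 in control and -1.14 in depleted cells, with an interaction of -0.05 (SE 0.29, edgeR adjusted p = 0.947), and KRT18 by -1.52 and -1.51, with an interaction of 0.01 (SE 0.27, edgeR adjusted p = 0.995). No member was called for the interaction, where 1.28% of all genes were, and 2 members had an unadjusted p under 0.05, KRT17 and KRT15. KRT17 had the largest term, -3.05 (SE 0.87, edgeR adjusted p = 0.0683), which DESeq2 called with adjusted p = 0.0119. The term of KRT15 was -0.99 (SE 0.35, edgeR adjusted p = 0.128), against rises with Cisplatin of 1.6 in control and 0.61 in depleted cells. Without shControl untreated replicate 2 the KRT17 term was -4.48 (edgeR adjusted p = 0.0199), and without shControl Cisplatin replicate 2 the KRT15 term was -1.3 (edgeR adjusted p = 0.0124). With the replicate block the KRT17 term was -3.03 (edgeR adjusted p = 0.034).

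The Cisplatin call of KRT15, at 2.06-fold over both shRNAs (log2 1.04, SE 0.22, edgeR adjusted p = 0.000773), was just above the fold limit. It came under 2-fold without shControl untreated replicate 1 (0.99), 2 (0.94) or 3 (0.98) and without shControl Cisplatin replicate 1 (0.92) or 3 (0.91), and to just under 2-fold (1 on the rounded log2 scale) with the replicate numbers as a block within each shRNA. Its adjusted p stayed at or under 0.00253 in all of these. KRT17 over both shRNAs had a log2 change of 1.45 (SE 0.55, edgeR adjusted p = 0.0321), and its adjusted p passed 0.05 without shControl untreated replicate 1 (0.0517), 2 (0.0583) or 3 (0.0745), shControl Cisplatin replicate 2 (0.0582) or shRNF113A untreated replicate 1 (0.0513). Leaving out any 1 of the 3 shControl untreated libraries ended both of these calls, and those of KRT8 and KRT18 remained. Without shControl untreated replicate 1, KRT23 passed the filter on low counts and was called lower (-1.26, SE 0.48, edgeR adjusted p = 0.0344). The same held without shControl Cisplatin replicate 3 (-1.41, SE 0.58, edgeR adjusted p = 0.0476). With all 12 libraries and no filter KRT23 was at -1 (edgeR adjusted p = 0.136), and its counts are too low to rely on these calls.

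The files list 54 other rows with keratin symbols, of which 11 passed the filter on low counts and 5 had no count. Among these 11, Cisplatin was called with 5 higher and 0 lower (10.3% and 11.2% of all tested genes). Depletion was called with 4 higher and 2 lower (5.47% and 5.52%). The median log2 changes were 0.49 and 0.23, against 0.03 and 0 over all tested genes. KRT34, KRT32, KRT3 and KRT18P55 averaged at most 7.33 counts in the untreated groups and 11.3 to 29.7 in the treated ones. They passed the filter through the treated libraries, where they are high. The 5 against 0 and the median of 0.49 are therefore not read as a rise of keratins with Cisplatin. KRT6A, a keratin of wounded and hyperproliferative epithelium, read 0.415, 0.306 and 0.0795 CPM in shControl untreated and 2.91, 3.49 and 5.53 in shRNF113A untreated. With Cisplatin KRT6A read 0.342, 0.168 and 0.298 in shControl and 10.3, 9.58 and 21.3 in shRNF113A. Every depleted library was above every control one, a separation whose share over all genes was not counted. KRT4, a mucosal keratin, went the other way, from 22.9 ± 10.6 to 6.13 ± 2.11 CPM without drug (SD, n = 3), and its shControl untreated mean was 28.95 CPM without replicate 2. Upon depletion over both treatments KRT6A rose by 4.87 in log2 (SE 0.41, edgeR adjusted p = 1.8e-06), KRT20 by 1.96 (SE 0.23, edgeR adjusted p = 2.42e-05), and KRT222 fell by 2.41 (SE 0.32, edgeR adjusted p = 7.07e-05) and KRT4 by 2.23 (SE 0.29, edgeR adjusted p = 6.31e-05). Without that library KRT4 fell by 2.43 (SE 0.22, edgeR adjusted p = 3.97e-06). Of the 73-base windows of KRT6A, 25.9% are shared with KRT6C and 18.1% with KRT6B, so the KRT6A level is uncertain to that extent.

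**Figure D4:**
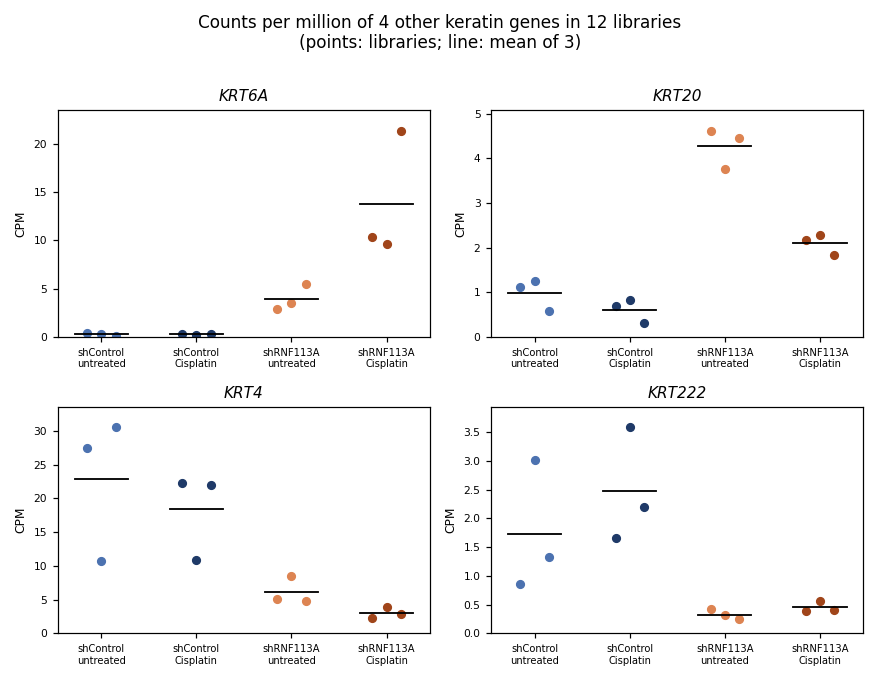
Level in CPM of KRT6A, KRT20, KRT4 and KRT222 in the 4 conditions (linear axes from 0), 1 point per library and a line at the mean of 3. KRT6A lies above 2.9 CPM in all 6 shRNF113A libraries and below 0.5 in all 6 shControl libraries.

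Genes of other intermediate filaments, of linkers and of regulators were counted from 3 lists by the same call, to be read against 10.3% of all genes called higher and 11.2% lower for Cisplatin, 5.47% and 5.52% for depletion, and medians of all genes of 0.03 and 0. Of 12 tested genes of other intermediate filaments, 3 were called higher with Cisplatin (NEFM, NEFL and INA, of neuronal filaments) and 1 lower (LMNB1, the nuclear lamin B1), and 1 was called each way upon depletion (NES higher and SYNC lower). By the adjusted p alone 7 rose and 2 fell with Cisplatin and 2 rose and 4 fell upon depletion, with median log2 changes of 0.55 and -0.16. NEFL, the most abundant of the 3, rose by 2.18 (SE 0.12, edgeR adjusted p = 3.71e-09), and LMNB1 fell by 1.72 (SE 0.11, edgeR adjusted p = 1.63e-08).

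Of 20 tested linkers, the desmosomal, hemidesmosomal and keratin-binding proteins, 6 were called higher with Cisplatin and 0 lower, and 1 higher and 0 lower upon depletion. By the adjusted p alone 10 rose and 3 fell with Cisplatin (median 0.19), and 8 rose and 3 fell upon depletion (median 0.26). DSC3, a desmosomal cadherin, rose by 2.84 with Cisplatin (SE 0.11, edgeR adjusted p = 2.02e-10), and EPPK1, a plakin, by 2.52 (SE 0.39, edgeR adjusted p = 6.73e-05) at a mean of 0.302 CPM. COL17A1, the hemidesmosomal collagen, was at 1.2 ± 0.215 CPM in shControl untreated, 9.7 ± 0.391 in shControl Cisplatin, 14.2 ± 1.35 in shRNF113A untreated and 80.1 ± 11.1 in shRNF113A Cisplatin (SD, n = 3). It was the linker called for both, with 2.7 for Cisplatin (SE 0.12, edgeR adjusted p = 4.25e-10) and 3.25 for depletion (SE 0.12, edgeR adjusted p = 1.61e-09).

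Of 19 tested transcription factors known to act on keratin genes or on epithelial fate, 4 were called higher and 2 lower with Cisplatin, and 3 higher and 0 lower upon depletion. By the adjusted p alone 7 rose and 5 fell with Cisplatin (median 0.05), and 6 rose and 3 fell upon depletion (median 0.06). FOSL1, an AP-1 subunit, rose by 2.62 with Cisplatin (SE 0.25, edgeR adjusted p = 5.76e-07). TP63, a factor of basal epithelium, fell by 3.27 (SE 0.3, edgeR adjusted p = 5.09e-07) and GLI2 by 2.3 (SE 0.29, edgeR adjusted p = 1.01e-05). TP63 had 30 to 54 counts per library in shControl untreated and 1 to 9 in shControl Cisplatin, so the size of its fall is uncertain. Upon depletion TP63 rose by 1.63 (SE 0.29, edgeR adjusted p = 0.000596) and KLF4 by 1.16 (SE 0.09, edgeR adjusted p = 1.12e-06). OVOL1 was called for both at 0 counts in shControl untreated libraries and at most 15 in any, so its fold is not given. Their part in the keratin levels was not tested.

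Of 6 tested epithelial markers, KRT8 and KRT18 included, 1 was called higher and 4 lower with Cisplatin (10.3% and 11.2% of all genes). By the adjusted p alone 5 were lower. Upon depletion 3 were called higher and 0 lower (5.47% and 5.52%). EPCAM was not called with Cisplatin. It averaged 10.3 CPM in shControl untreated and 5.16 in shControl Cisplatin, and 92.3 and 46.4 CPM in shRNF113A untreated and Cisplatin libraries. CDH1 (E-cadherin), beside KRT8 and KRT18, fell with Cisplatin by 1.56 (SE 0.12, edgeR adjusted p = 1.25e-07), ESRP1 fell by 1.22 (SE 0.32, edgeR adjusted p = 0.00417), and CLDN4 rose by 1.09 (SE 0.24, edgeR adjusted p = 0.00137). Beside KRT15 and KRT19, EPCAM rose by 3.16 upon depletion (SE 0.28, edgeR adjusted p = 2.27e-06), ESRP1 by 2.26 (SE 0.33, edgeR adjusted p = 0.000121) and CLDN4 by 1.57 (SE 0.25, edgeR adjusted p = 0.000222), while CDH1 fell by 0.44 (SE 0.12, edgeR adjusted p = 0.00967). Of markers of other cell types, COL3A1 rose by 2.52 upon depletion (SE 0.4, edgeR adjusted p = 0.000228). LUM rose by 2.07 (SE 0.35, edgeR adjusted p = 0.000378) and CDH5 by 2.04 (SE 0.58, edgeR adjusted p = 0.0113). COL3A1 had at most 20 counts in any library, CDH5 at most 18 and LUM 6 to 89, so the sizes of these rises are uncertain. COL1A1 fell by 1.16 (SE 0.42, edgeR adjusted p = 0.036), but its control libraries spread widely. It ranged from 5.86 to 34.9 CPM in shControl untreated and from 3.32 to 5.64 in shRNF113A untreated libraries. No immune marker passed the filter. The part of these genes in the keratin results was not tested.

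For each tested member, 1 gene outside the family with the most similar profile was found by Pearson's r of log2 CPM over the 12 libraries among 15332 genes. KRT18 was followed most closely by CDC25B (r = 0.993) and KRT8 by SCARA3 (r = 0.992). KRT7 went with RAB8A (r = 0.975), KRT15 with TSPAN12 (r = 0.986), KRT17 with CRACR2B (r = 0.958), KRT80 with CCNYL1 (r = 0.931) and KRT19 with RPL4 (r = 0.915). KRT81 and KRT86 had the same gene, PKIB (r = 0.966 and 0.973). These libraries fall into 4 conditions, which the points share, and r carries no test.

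Reads that lie in introns were compared with exonic reads of the same gene, since RNF113A associates with the spliceosome. Introns of member genes in the splicing tables are shown with 10 exonic and 20 intronic bases at the 5′ splice site (GRCh37, strand of the gene), and the whole intron is given for KRT80, which had the largest share of retention among members tested upon depletion. The capitals mark the first and last pair of intron bases.
KRT80, chr12:52574393-52574686, 5′ site: gctgaagaagGTagcctgcccagcctgccc
KRT18, chr12:53344195-53344533, 5′ site: ttagagtcaaGTaagtttgggggctagaga
KRT8, chr12:53294468-53294942, 5′ site: catcaagaagGTgagggagtctcccttctc
KRT8, chr12:53295004-53295647, 5′ site: tcaagaacaaGTgagcaactcccaccctcc
KRT15, chr17:39673217-39673334, 5′ site: tcaggctcaaGTgcgctcccccgtctctct
KRT17, chr17:39778007-39778606, 5′ site: ccacgaggagGTgaggtggctggggcagaa
KRT80 intron: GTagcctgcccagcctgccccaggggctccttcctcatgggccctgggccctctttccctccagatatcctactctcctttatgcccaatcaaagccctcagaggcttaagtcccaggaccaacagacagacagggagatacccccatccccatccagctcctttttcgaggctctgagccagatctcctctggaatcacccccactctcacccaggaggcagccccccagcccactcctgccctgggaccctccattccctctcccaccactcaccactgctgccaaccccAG

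The KRT80 intron is 294 bases long with a GC content of 61.6%. The KRT18 intron (339 bases) and the KRT8 introns (475 and 644 bases) hold between 50% and 52.4% GC. All 6 introns begin with GT and end with AG.

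The inclusion level of the KRT80 intron, the share of transcripts that keep it after correction for length, was 7.77%, 4.41% and 5.37% in shControl untreated libraries a, b and c, and 13.6%, 13.3% and 10.3% in shRNF113A untreated. With Cisplatin it was 6.13%, 4% and 5.61% in shControl and 9.31%, 9.52% and 8.7% in shRNF113A. All depleted libraries were above the controls of the same treatment, and the share of all introns that separate so was not counted. The log2 ratio of the 2 forms rose by 1.18 upon depletion without drug (edgeR adjusted p = 0.000372) and was 0.88 higher with Cisplatin (edgeR adjusted p = 0.0695).

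The KRT18 and KRT8 introns were kept in fewer than 1% of transcripts, and with Cisplatin more often in depleted than in control cells. KRT18 was at 0.244%, 0.162% and 0.357% in shControl Cisplatin and 0.633%, 0.585% and 0.598% in shRNF113A Cisplatin, a rise of 1.29 in log2 ratio (edgeR adjusted p = 0.000306). The 644-base KRT8 intron had a mean of 0.071% in shControl untreated and 0.125% in shRNF113A untreated (0.81, edgeR adjusted p = 0.00088), and of 0.0719% and 0.161% with Cisplatin (1.25, edgeR adjusted p = 0.000664). The 475-base KRT8 intron went from 0.0977% to 0.233% upon depletion with Cisplatin (1.28, edgeR adjusted p = 0.000432), and rose by 0.48 with Cisplatin in depleted cells (edgeR adjusted p = 0.011), which passed 0.05 without shRNF113A untreated library c (0.123) or shRNF113A Cisplatin library a (0.0551) or b (0.0561). The KRT17 intron had at most 5 reads and was not tested, and that of KRT15 was tested only for Cisplatin in depleted cells (0.81, edgeR adjusted p = 0.339).

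An event was called when its adjusted p was under 0.05 and the mean levels were at least 20 percentage points apart. No member intron was called, where of all tested introns 0.087% were for Cisplatin in control cells, 1.12% for Cisplatin in depleted cells, 0.99% for depletion in untreated cells and 2.37% for depletion in Cisplatin-treated cells. By the adjusted p alone, 0 of 4, 2 of 5, 2 of 4 and 3 of 4 tested member introns passed, all upward, against 0.493%, 15.7%, 17.4% and 26% of all tested introns. At an unadjusted p under 0.05 there were 0, 3, 4 and 4.

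Between 24 and 25 skipped exon events of member genes were tested per comparison with edgeR. None was called, where 0.0576%, 0.262%, 0.0134% and 0.0569% of all events were in the same order, and none had an adjusted p under 0.05. An unadjusted p under 0.05 was found for 0, 0, 1 and 0 of them.

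**Figure D5:**
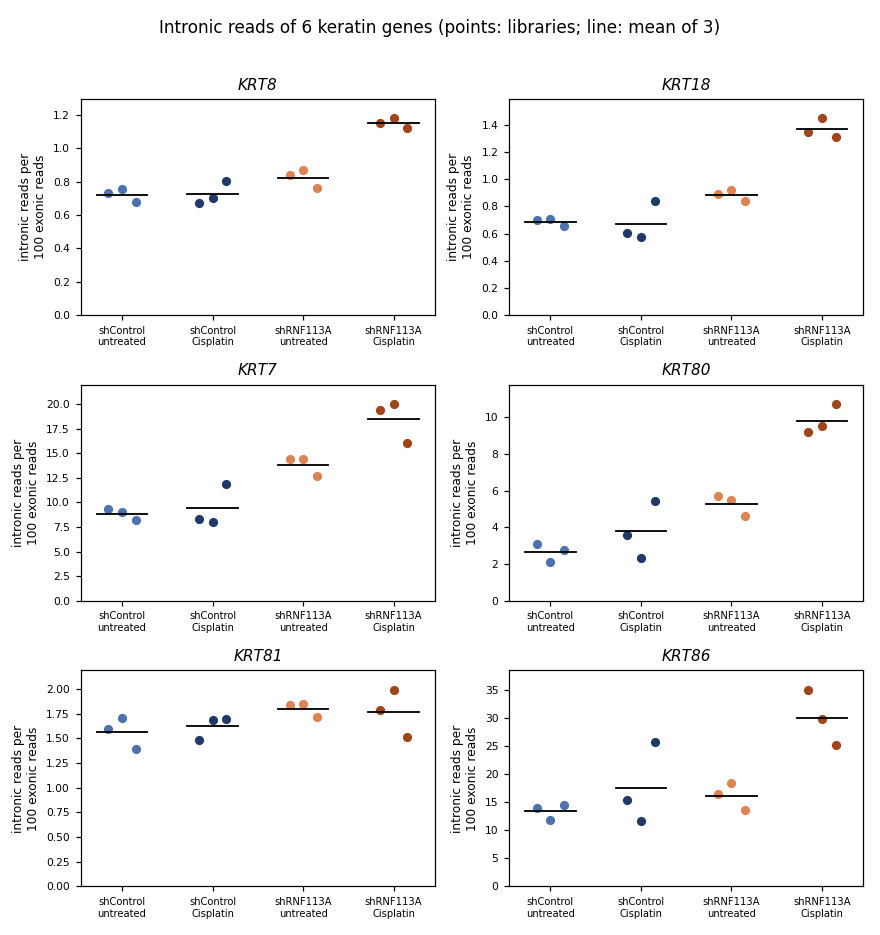
Intronic reads per 100 exonic reads for 6 of the 7 tested members (KRT15, with few reads, is left out) in the 4 conditions, 1 point per library and a line at the mean of 3, on separate linear axes. KRT80, KRT18 and KRT7 sit highest in the shRNF113A Cisplatin libraries, and KRT81 lies between 1.39 and 1.99 in all 12.

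Over whole genes, KRT80 had 3.09, 2.13 and 2.74 intronic reads per 100 exonic reads in shControl untreated libraries and 5.7, 5.48 and 4.61 in shRNF113A untreated. With Cisplatin it had 3.56, 2.35 and 5.44 in shControl and 9.17, 9.54 and 10.7 in shRNF113A. The depleted libraries were above the controls of the same treatment. The share of all genes that separate so in this measure was not counted. Rises in it upon depletion were common, with 28.2% of all genes in untreated and 81.5% in Cisplatin-treated cells. The log2 ratio of intronic to exonic KRT80 reads rose by 0.98 upon depletion in untreated cells (SE 0.23, edgeR adjusted p = 0.00853) and by 1.42 in Cisplatin-treated cells (SE 0.23, edgeR adjusted p = 2.19e-05).

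KRT7, with 8.87 ± 0.568 and 9.4 ± 2.17 intronic reads per 100 exonic in shControl untreated and Cisplatin, reached 13.8 ± 0.981 and 18.5 ± 2.1 in depleted cells (SD, n = 3). KRT18 had 0.687 ± 0.027, 0.672 ± 0.145, 0.883 ± 0.0434 and 1.37 ± 0.0721 in shControl untreated, shControl Cisplatin, shRNF113A untreated and shRNF113A Cisplatin libraries. KRT81 stayed at 1.57 ± 0.163, 1.62 ± 0.124, 1.8 ± 0.0723 and 1.76 ± 0.241, while KRT86, which shares windows with it, had 13.4 ± 1.38, 17.5 ± 7.21, 16.1 ± 2.37 and 29.9 ± 4.9. The annotated KRT86 gene begins at chr12:52643084, before the end of KRT7 at 52645970 on the same strand. Whether intronic reads of KRT86 came from KRT7 transcripts was not tested. Replicate 3 of shControl Cisplatin was the highest of its group for KRT7, KRT8, KRT18, KRT80 and KRT86.

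Of 7 tested members, 0 rose for Cisplatin in control cells, where 17.5% of 11487 genes did, 5 for Cisplatin in depleted cells (64.6% of all), 2 for depletion in untreated cells (28.2%) and 5 for depletion in Cisplatin-treated cells (81.5%). At an unadjusted p under 0.05 there were 0, 5, 3 and 5. The 2 were KRT7 and KRT80. KRT7 was at adjusted p = 0.05 or above without shRNF113A untreated replicate 1 (0.05) or 2 (0.0656), and KRT80 without replicate 2 (0.0514), while KRT18 passed without shControl Cisplatin replicate 2 (0.0316) or 3 (0.0057), all with edgeR. KRT7 also lost its call for Cisplatin in depleted cells without shRNF113A untreated replicate 1 or 3 or shRNF113A Cisplatin replicate 1 or 2 (edgeR adjusted p from 0.0534 to 0.112), and without shControl Cisplatin replicate 2 edgeR called 2 members for Cisplatin in control cells, KRT80 and KRT86, both upward. In all 12 libraries the 5 were KRT7, KRT8, KRT18, KRT80 and KRT86 in both comparisons. Upon depletion in Cisplatin-treated cells KRT18 rose by 1.04 (SE 0.15, edgeR adjusted p = 1.01e-05) and KRT7 by 1 (SE 0.16, edgeR adjusted p = 2.72e-05), against a median of 0.96 over all genes. KRT86 rose by 0.83 (SE 0.23, edgeR adjusted p = 0.0031) and KRT8 by 0.67 (SE 0.14, edgeR adjusted p = 0.000209). KRT81 had 0.11 (SE 0.15, edgeR adjusted p = 0.495) and KRT15 had 0.46 (SE 0.26, edgeR adjusted p = 0.101). KRT15 rested on 6 to 84.7 intronic reads on average per condition.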

How the data were processed

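The members and lists were chosen with earlier results of these data known. The authors made stranded libraries from A549 cells, aligned reads to hg19 with STAR 2.5.2b and deposited raw counts per gene, of which the strand of the gene was used here. They deposited rMATS tables with counts of both forms of each event, whose libraries carry no names and are called a, b and c, and HTSeq counts of exons and of whole genes (Gencode v19). Columns with the authors' own p-values and differences were not used. Counts were tested with edgeR 4.0.16 in R 4.3.3 (TMM, filterByExpr, quasi-likelihood, Benjamini-Hochberg over all tested genes), with drug and shRNA as terms and, for interactions and single conditions, their interaction. Forms of an event needed at least 10 reads in every library, and intronic and exonic reads at least 1 of each. Named genes were all members, RNF113A, called genes of each list (at most 3 each way), the most similar profiles, and every member intron. The code of each test was first tested on simulated data with known changes, whose values are not printed. The labels call replicates biological. Equally numbered libraries deviated together between untreated and treated control cells (r = 0.48, 0.67 and 0.38) and not clearly elsewhere, so pairing rests on those values alone. Exon lengths came from Gencode v19. Alternatives were DESeq2 1.42.0, library size, other filters, unstranded counts, a replicate block, no fold limit and omission of each library. Sequences came from GRCh37 and RefSeq. Figures were drawn with matplotlib 3.10.9 and Python 3.11.15.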

Additional observations from a re-analysis of the deposited data

Results flagged for a closer look

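The Cisplatin effect on GRHL3, a transcription factor of epithelial barrier formation, differed between the shRNAs by an interaction of -4 (SE 0.45, edgeR adjusted p = 0.0046). GRHL3 was at 1.11 ± 0.872 CPM in shControl untreated, 30.9 ± 7.18 in shControl Cisplatin, 13.4 ± 1.04 in shRNF113A untreated and 23 ± 0.745 in shRNF113A Cisplatin libraries (SD, n = 3). The Cisplatin effect on NKX2-1, a lung lineage factor, differed in the other direction, by 2.15 (SE 0.46, edgeR adjusted p = 0.0251), at 2 to 20 counts per library.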

How the results depend on the processing

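No sign changed among the member values with an unadjusted p under 0.05, under any alternative. Members called went from 4 to 7 for Cisplatin over both shRNAs, from 4 to 7 in control cells and from 2 to 6 in depleted cells with no limit on the fold. Leaving out single libraries gave 2 to 4 for Cisplatin over both shRNAs, 0 to 1 for the interaction, 1 to 2 for depletion in Cisplatin-treated cells, 0 to 2 for intronic reads with Cisplatin in control cells and 0 to 3 for those upon depletion in untreated cells. DESeq2 and the replicate block each called 1 member for the interaction (KRT17), against 0, and 2 for depletion in Cisplatin-treated cells (KRT15 and KRT19), against 1. The block changed no other count of members called by over 1.5 times, and within each shRNA it took KRT15 just under 2-fold for Cisplatin. With exon lengths of the reference annotation the KRT18 to KRT8 ratio was 2.08, 1.55, 2 and 1.55 in shControl untreated, shControl Cisplatin, shRNF113A untreated and shRNF113A Cisplatin, and the order of the members changed. With library size in place of TMM the median log2 change of all genes upon Cisplatin went from 0.03 to 0.13, and KRT8 in control cells came to -0.98. With at least 10 counts in every library, which drops the genes near 0 in some condition, all genes called numbered 2121 instead of 3298 for Cisplatin, 824 instead of 1687 for depletion, 789 instead of 1329 for depletion in untreated cells and 1103 instead of 1891 for depletion in Cisplatin-treated cells, and KRT17 was not tested. No paired analysis was possible because the splicing tables leave their libraries unnamed, whereas the gene counts and intronic reads were fitted with the block. Depth limits KRT17, KRT23 and the introns of KRT15.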
